A study of Homo sapiens with 6 samples.

Results

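Collagen chain genes encode the polypeptides that wind in threes into collagen, the main protein of the extracellular matrix. The genes were found by symbol (COL, a type number, A and a chain number) among probe sets annotated to a single gene. This gave 43 of the 19777 genes measured, read by 112 probe sets, and where a gene had several, the one brightest on average stood for it.

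Messenger RNA was measured on 6 arrays hybridised with cRNA from MDA-MB-231, an established mesenchymal-like human breast cancer line that lacks the estrogen receptor. In the control group 3 samples received a non-targeting siRNA, and in the other group 3 samples received 1 siRNA sequence against ING2 with a lipid reagent. ING2 reads a methylated histone mark and belongs to a histone deacetylase complex built on SIN3. Since a single ING2 siRNA is named, effects of that sequence and of ING2 loss cannot be told apart, and the labels give RNA collection as 4 days in one field and 3 days in another.

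Collagens differ in how their trimers assemble. Fibrillar collagens form the banded fibres of connective tissue, type IV forms the sheet-like network of basement membranes, type VI forms beaded microfilaments, and FACIT collagens decorate fibrils. Others span the plasma membrane or carry a carboxy-terminal fragment that is released. Carcinoma cells can make basement membrane and type VI chains themselves, while most fibrillar collagen in a tumour comes from fibroblasts.

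The targeted gene, ING2, was at 1400, 1349 and 1324 units of intensity in control arrays and at 163, 188 and 161 with its siRNA, a level of 12.5% of control (limma adjusted p = 1.85e-07, n = 3 per group). Median intensity per array was 75.6 to 77.1 units in controls and 78.3 to 81.4 after ING2 siRNA, without overlap. Precision is limited by there being only 6 arrays. Nothing in the labels states whether each replicate was its own culture, so the spread behind each p-value may be technical. Over all genes 8.29% were called, 3.62% higher and 4.67% lower, where a gene counts as called if its limma p, adjusted by Benjamini-Hochberg across the whole table, is under 0.05. That split was 716 higher and 924 lower, 260 and 1450 after median centring of the arrays, and 944 and 622 after quantile normalization. Changes ran with brightness: with the genes in 10 bins by intensity, a bin's median log2 change was as high as 0.15 among dim genes and -0.09 in the brightest bin. The log2 ratio of 3' to 5' signal for GAPDH, which reflects RNA integrity, was 0.193 to 0.222 in controls and 0.269 to 0.352 after ING2 siRNA, without overlap, while for ACTB it overlapped (0.366 to 0.578 and 0.483 to 0.652). The part of RNA integrity in the results was not tested. The 6 markers of the line (VIM, CD44, AXL, MSN, PLAU and CAV1) lay at percentiles 95.5 to 99.6 of intensity, and the 5 luminal markers at 5.50 to 55.6. Markers of fibroblasts, 7 in all and the usual source of fibrillar collagen, lay at percentiles 7.17 to 45.4. They summed to 560 to 618 units in controls and 520 to 552 after ING2 siRNA, with DCN called higher and LUM called lower and none at 0. Endothelial markers (6) summed to 563 to 630 and 633 to 646 units and blood cell markers (6) to 793 to 879 and 856 to 934 units, with 0 of the former called and 1 of the latter (CD79A, higher). The part of these cells in the results was not tested.

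Of the 43 collagen chain genes, 3 rose and 0 fell after ING2 siRNA by limma. COL4A2, a basement membrane chain, rose 1.32-fold, COL6A2, a chain of beaded microfilaments, rose 1.31-fold, and COL10A1, the chain of hypertrophic cartilage, rose 1.28-fold. The share called higher was 6.98% against 3.62% of all genes, and the share called lower was 0% against 4.67%. At an unadjusted p under 0.05 there were 12 higher (27.9%) and 1 lower (2.33%), against 19.4% higher and 13.6% lower over all genes. With array weights 10 rose and 0 fell, a setting that called 1927 genes higher (9.74%) and 1931 lower over the whole table. After median centring of the arrays 0 rose and 0 fell.

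The median of the group lay close to that of all genes. The members' median log2 change was 0.07, and the median over all genes was 0.06. The lowest change was -0.29 (COL16A1) and the highest 0.40 (COL11A1 and COL4A2), with 28 values above 0 and 15 below. Over all genes 12194 values were above 0 and 7583 below. The 3 control arrays and the 3 ING2 siRNA arrays did not overlap in 13 members (30.2%), 9 of them higher and 4 lower, against 36.5% of all genes. Groups without overlap were thus not more frequent among collagens than across the array.

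**Figure D1:**
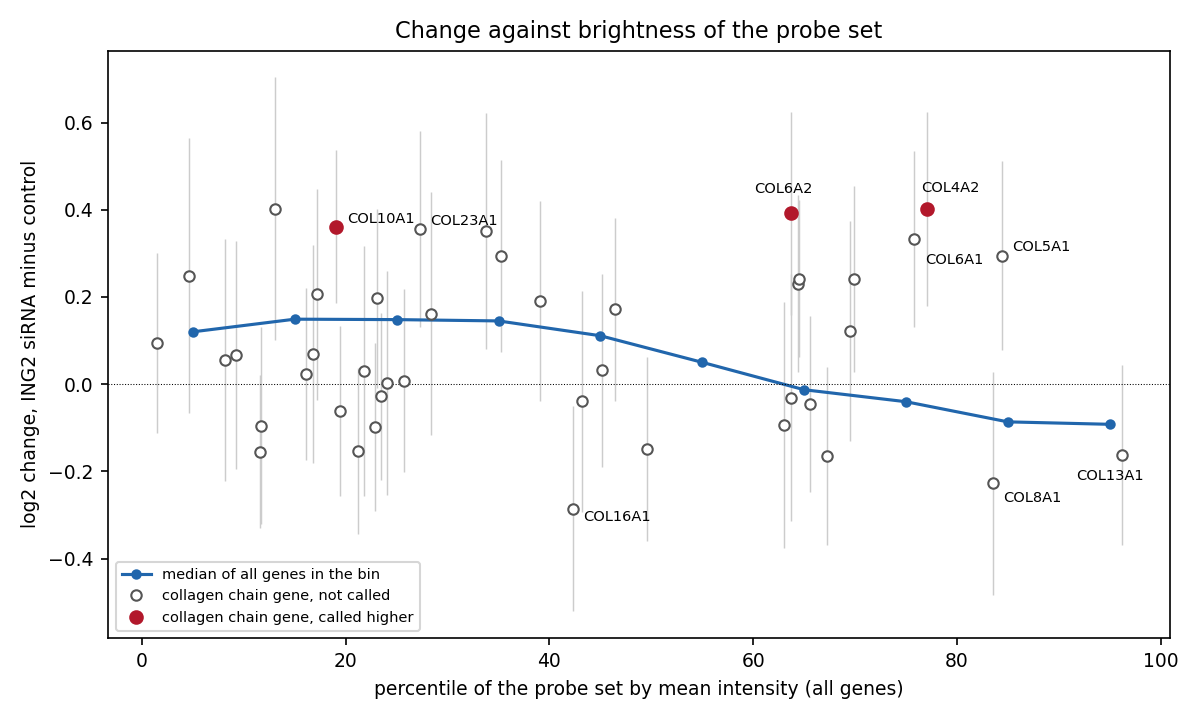
Log2 change (ING2 siRNA minus control) of the 43 collagen chain genes against the percentile of their probe set by mean intensity; vertical lines are 95% confidence intervals from limma (n = 3 per group), red points are called higher, and the blue line joins the medians of all genes in 10 bins of equal size. COL4A2 and COL6A2 lie among bright probe sets where the median change of all genes is below 0, and COL10A1 lies among dim ones where it is 0.15.

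The calls were also read by brightness. Of the 29 below the median intensity of all genes, 1 rose (COL10A1), with a median log2 change of 0.06 against 0.14 over all genes below it. Of the 14 above it, 2 rose, 14.3% against 1.96% of all genes there, with a median of 0.18 against -0.04. This division was chosen after the values were seen. In the plot of change against brightness, COL4A2, COL6A2, COL6A1 and COL5A1 lie well above the line of bin medians, and COL16A1 lies farthest below it. Of all 43 members, 19 exceeded the median of their bin, and the median difference from it was -0.03.

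The type IV chains come in pairs of genes that lie head to head and are transcribed in opposite directions. The main basement membrane trimer joins the products of COL4A1 and COL4A2. Their start sites in RefSeq (GRCh38.p14) are separated by 126 bases on chromosome 13, so that both genes share 1 promoter region. It is shown here because COL4A2 rose. Read 5′ to 3′ on the plus strand, toward COL4A2, at chr13:110307158-110307283, it holds 1 CCAAT box and 1 GC box (GGGCGG), in capitals, and no TATAAA.

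COL4A1-COL4A2 shared promoter: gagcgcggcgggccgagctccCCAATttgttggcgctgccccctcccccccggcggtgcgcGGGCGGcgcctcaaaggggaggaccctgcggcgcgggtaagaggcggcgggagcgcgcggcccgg

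COL4A2 read 753, 653 and 641 units in the controls and 810, 922 and 972 after ING2 siRNA. Every ING2 siRNA array was above every control array. The log2 change was 0.40 (SE 0.10, limma adjusted p = 0.0414), while genes of like brightness had a median of -0.04. The call was lost after median centring (0.33, adjusted p = 0.0690) and with 50 added to each value before the log (0.38, adjusted p = 0.0501), and held in 1 of the 6 fits without 1 array, that without control replicate 1. It was also lost when every probe set was fitted on its own (adjusted p = 0.0559). A dimmer COL4A2 probe set had a value of 0.24 that was not called.

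COL4A1, on the other side of the shared promoter, read 452, 500 and 499 units in the controls and 441, 561 and 588 after ING2 siRNA. The groups overlapped, with ING2 siRNA replicate 1 below all controls. Its log2 change was 0.12 (95% interval -0.13 to 0.37, limma adjusted p = 0.466). For COL4A2 over COL4A1 the log2 ratio averaged 0.49 ± 0.21 in control arrays and 0.77 ± 0.09 in ING2 siRNA arrays (SD, n = 3 each), a difference of 0.28 with an exact two-sided permutation p = 0.3. With 3 against 3 arrays this test cannot give a p under 0.1, so whether the chains changed unequally cannot be judged from it.

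The other type IV genes encode chains of more restricted basement membranes, such as those of the kidney glomerulus. COL4A3 read 37.9, 41.1 and 39.8 units in controls and 35.0, 38.0 and 41.0 after ING2 siRNA. Its partner COL4A4 read 42.8, 48.4 and 41.4 and then 46.9, 51.8 and 53.1. Both were dim and both overlapped, with log2 changes of -0.06 (adjusted p = 0.638) and 0.20 (0.164) in limma, and 418 bases lay between their RefSeq start sites. The COL4A4 to COL4A3 ratio did not overlap between the groups, with a difference of 0.26 (exact two-sided permutation p = 0.1, 0.3 adjusted over 9 ratios). With 3 against 3 arrays, 0.1 is the smallest p this test allows. The ratio used 1 probe set per gene. All 7 COL4A3 probe sets ran from -0.09 to 0.32 with 5 above 0. The mean of probe sets gave 0.11 for COL4A3 and 0.14 for COL4A4.

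COL4A5 read 326, 395 and 383 units in controls and 288, 402 and 352 after ING2 siRNA. COL4A6, whose nearer RefSeq start site lies 379 bases from that of COL4A5, read 29.9, 36.4 and 28.3 and then 39.2, 35.7 and 33.8. The log2 changes were -0.09 (limma adjusted p = 0.623) and 0.21 (0.211), with overlap in both. Of the 6 type IV genes, 1 rose and 0 fell, with a median of 0.16. At an unadjusted p under 0.05 there was 1 higher (16.7%) and 0 lower, against 19.4% and 13.6% of all genes.

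**Figure D2:**
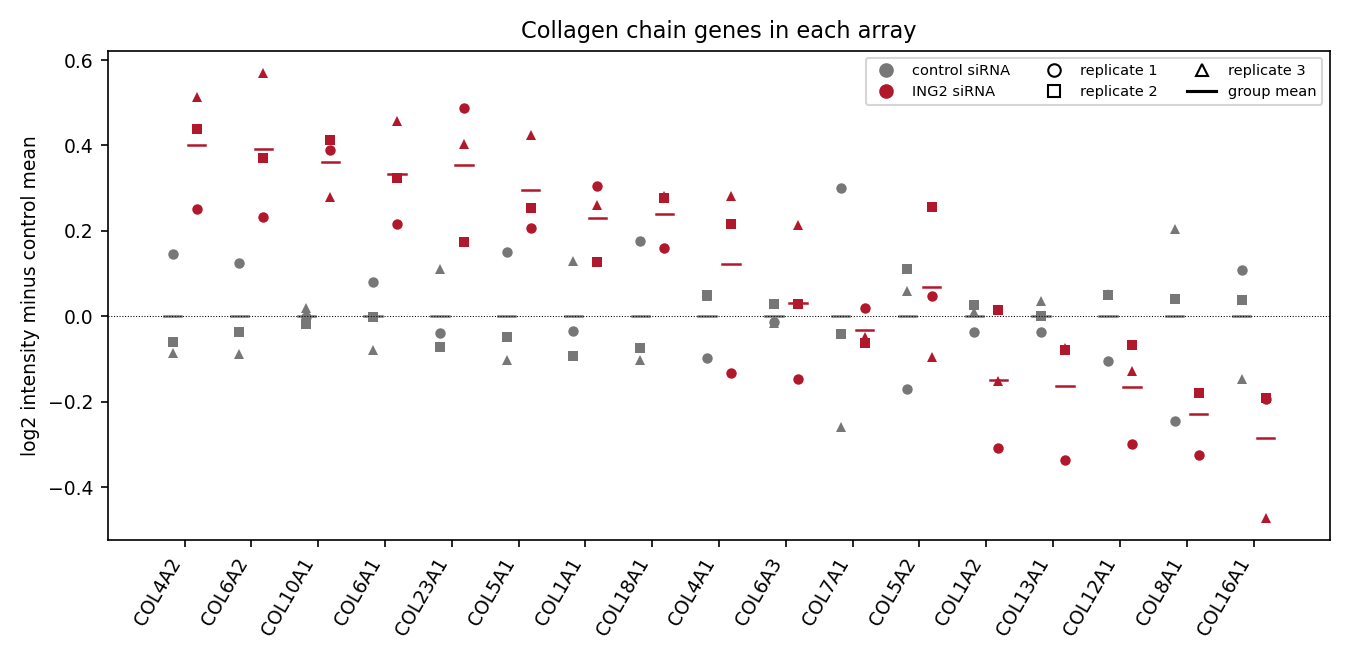
Log2 intensity of 17 collagen chain genes in each of the 6 arrays, minus the mean of the 3 control arrays of that gene; grey symbols are control siRNA, red symbols ING2 siRNA, the symbol shape gives the replicate number and short lines the group means. COL4A2, COL6A2, COL10A1, COL6A1, COL23A1 and COL5A1 show all ING2 siRNA arrays above all control arrays, and COL13A1 and COL16A1 show all of them below.

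Type VI collagen is built from 1 chain each of COL6A1, COL6A2 and a long chain, usually COL6A3. COL6A1 and COL6A2 are neighbours, with 0 protein-coding genes between them in the RefSeq order. COL6A2 read 354, 316 and 305 units in controls and 381, 419 and 481 after ING2 siRNA. All ING2 siRNA arrays were above all controls, and the log2 change was 0.39 (SE 0.10, limma adjusted p = 0.0484, bin median -0.01). The call was lost after median centring (adjusted p = 0.0827), with 50 added (0.0591), with the mean of its 2 probe sets (0.23, 0.0587) and in 5 of the 6 fits without 1 array, all but that without control replicate 1. It was also lost when every probe set was fitted on its own (0.0657), and the dimmer probe set had a value of 0.07.

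The 250 bases before the RefSeq start site of COL6A2 are shown because the gene rose. They lie at chr21:46097862-46098111 (GRCh38.p14, plus strand), are 79.6% G or C, and hold 4 GC boxes, 3 as GGGCGG and 1 as CCGCCC on the other strand, and 1 TATAAA near the start site, in capitals.

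COL6A2 promoter: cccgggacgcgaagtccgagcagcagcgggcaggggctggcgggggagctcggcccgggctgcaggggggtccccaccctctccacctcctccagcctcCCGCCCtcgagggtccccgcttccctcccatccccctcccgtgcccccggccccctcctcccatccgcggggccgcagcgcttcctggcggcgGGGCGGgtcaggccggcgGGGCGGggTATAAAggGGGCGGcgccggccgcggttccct

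These letters are common. Searched on both strands, GGGCGG was found in 55.8% of 43 promoter windows of 300 bases from 31 collagen chain genes and in 45.0% of all 35116 windows in the RefSeq table. For CCAAT the shares were 30.2% and 34.6%, and for TATAAA 16.3% and 11.5%. The windows were G- and C-rich, with a median of 64.0% in the members against 58.7% in all windows. COL10A1, which also rose and whose promoter is not shown, had at most 41.0%. A match is a description of the letters and not a binding site.

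COL6A1 read 685, 647 and 613 units in controls and 753, 810 and 889 after ING2 siRNA. The groups did not overlap, and the log2 change of 0.33 (SE 0.09) fell just outside the threshold (limma adjusted p = 0.0503). It passed in 7 of 10 alternatives that kept all arrays, among them quantile normalization (0.44, adjusted p = 0.0304). The mean of its 8 probe sets, which ran from -0.13 to 0.36 with 7 above 0, gave 0.15 (adjusted p = 0.168).

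COL6A3 read 130, 134 and 130 units in controls and 119, 134 and 153 after ING2 siRNA, spanning the controls on both sides. Its log2 change was 0.03 (95% interval -0.19 to 0.25, limma adjusted p = 0.842). The log2 ratio of COL6A2 to COL6A3 averaged 1.30 ± 0.12 in controls against 1.66 ± 0.02 (SD, n = 3), and that of COL6A1 to COL6A3 averaged 2.30 ± 0.08 against 2.60 ± 0.06. Neither ratio overlapped between the groups (exact two-sided permutation p = 0.1 each, 0.3 adjusted over 9 ratios). Both ratios used 1 probe set per gene. With the mean of probe sets the log2 changes were 0.15 for COL6A1, 0.23 for COL6A2 and 0.03 for COL6A3. The COL6A1 to COL6A2 ratio differed by -0.06 (exact p = 0.2). COL6A5 and COL6A6, long chains that can take the place of COL6A3, were among the dimmest probe sets. They read 16.7 to 23.0 and 8.95 to 15.05 units over the 6 arrays, with overlap and log2 changes of 0.07 and 0.25 that were not called.

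**Figure D3:**
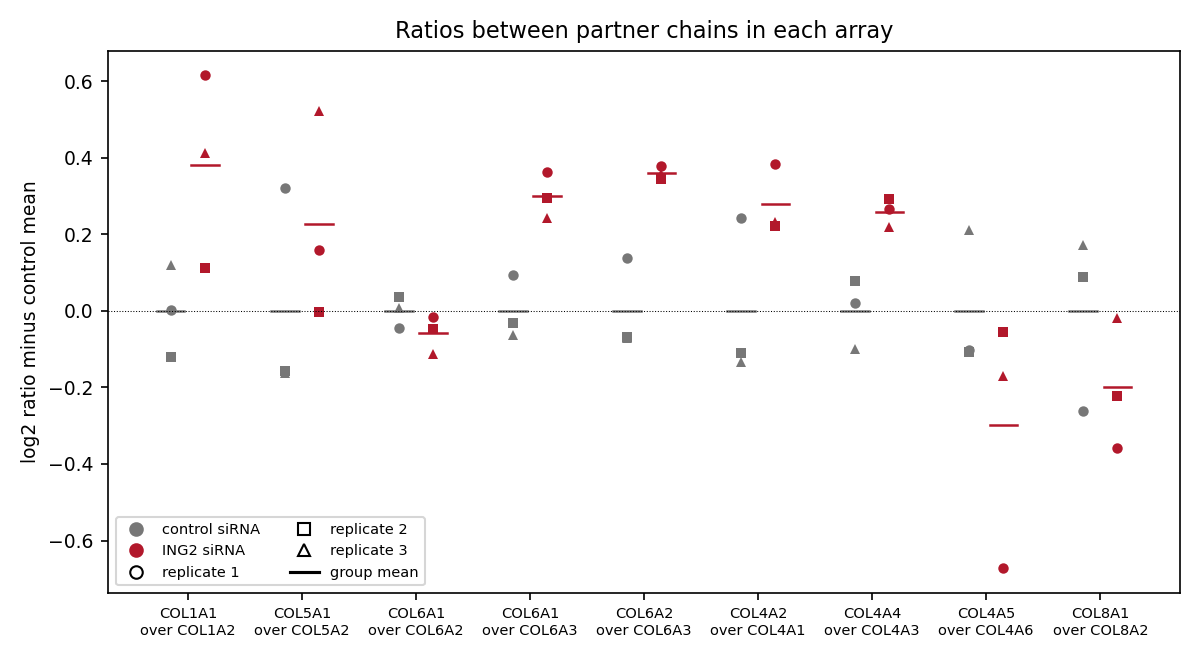
Log2 ratio of the intensities of 2 collagen chains in each array, minus the mean of that ratio in the 3 control arrays; grey symbols are control siRNA, red symbols ING2 siRNA, and short lines are group means. The ratios of COL6A1 and of COL6A2 to COL6A3 and of COL4A4 to COL4A3 do not overlap between the groups, and the other 6 do.

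Of 11 fibrillar chain genes 0 rose and 0 fell by limma, and 10 had a log2 change above 0, with a median of 0.17. Of these 11, 8 lay below the median intensity, where 7989 of 9888 genes were above 0. The median of their brightness bin was exceeded by 6 of the 11. At an unadjusted p under 0.05 there were 5 higher (45.5%) and 0 lower, against 19.4% and 13.6% of all genes. Below the median intensity, the shares over all genes were 26.5% higher and 3.47% lower. Type I collagen, the main fibre of connective tissue, joins COL1A1 and COL1A2. COL1A1 read 348, 334 and 390 units in controls and 441, 389 and 427 after ING2 siRNA. COL1A2 read 174, 182 and 180 units and then 144, 181 and 161. The log2 changes lay on opposite sides of 0, at 0.23 (adjusted p = 0.115) and -0.15 (adjusted p = 0.291), neither called by limma and both with overlap.

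For COL1A1 over COL1A2 the log2 ratio averaged 1.00 ± 0.12 in control arrays and 1.37 ± 0.25 in ING2 siRNA arrays (SD, n = 3 each, exact two-sided permutation p = 0.2), with overlap. Probe sets of COL1A2 disagreed. One read 122, 120 and 96.7 units in controls and 69.3, 85.2 and 75.0 after ING2 siRNA, a log2 change of -0.56 that passed when every probe set was fitted on its own (limma adjusted p = 0.0329). The dimmest had a value of 0.27 (adjusted p = 0.129). All 5 COL1A1 probe sets had values above 0, from 0.01 to 0.23, and their mean gave 0.12 (limma adjusted p = 0.269). The one used is of a kind whose probes can match other transcripts. The next brightest read only 77.4 to 106 units over the 6 arrays, with a value of 0.01. The ratio rests on the 1 probe set used for each gene.

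Type V collagen nucleates type I fibrils. COL5A1 read 1223, 1066 and 1027 units in controls and 1272, 1313 and 1480 after ING2 siRNA, all above the controls, but its log2 change of 0.29 (SE 0.10) was not called (limma adjusted p = 0.0760). It was called after quantile normalization (0.41, adjusted p = 0.0422), while the mean of its 3 probe sets, which ran from -0.11 to 0.29, gave 0.08 (adjusted p = 0.583). COL5A2 read 28.4, 34.4 and 33.3 units in controls and 33.0, 38.1 and 29.9 after ING2 siRNA, a log2 change of 0.07 with overlap. COL5A3 read 79.2, 68.2 and 77.3 units and then 86.7, 86.7 and 102, with no overlap and a log2 change of 0.29 (adjusted p = 0.0785).

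Among the remaining fibrillar genes, COL27A1, a chain of cartilage, went without overlap from 339 to 376 units in controls to 409 to 435 after ING2 siRNA (log2 0.24, limma adjusted p = 0.0772). All 5 of its probe sets had values from 0.20 to 0.37. COL11A1 had the highest log2 change of the members with COL4A2 (0.40, SE 0.14, adjusted p = 0.0787) but overlapped, at 19.8 to 24.7 units in controls and 24.0 to 34.4 after ING2 siRNA. Values for COL11A2 (0.17), COL24A1 (0.09), COL3A1 (0.01) and COL2A1 (0.00) were not called.

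Among the short-chain network collagens, COL10A1 read 33.4, 33.1 and 33.9 units in controls and 43.8, 44.6 and 40.6 after ING2 siRNA. The controls differed by less than 1 unit and every ING2 siRNA array was higher. Its log2 change was 0.36 (SE 0.08, limma adjusted p = 0.0317), against 0.15 for genes of like brightness, at percentile 19.1 of intensity. A second, dimmer probe set had a value of 0.38, and both were called when every probe set was fitted on its own (adjusted p = 0.0416 and 0.0375). The call was lost after median centring (0.29, adjusted p = 0.0532), quantile normalization (0.26, 0.0674), cyclic loess (0.23, 0.103) and with 50 added (0.16, 0.0547). It held in 2 of the 6 fits without 1 array, which left out control replicate 1 or ING2 siRNA replicate 2.

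COL8A1, a network chain of vessel walls and the cornea, read 1051, 1281 and 1434 units in controls and 994, 1099 and 1100 after ING2 siRNA. Control replicate 1 lay below 2 of the ING2 siRNA arrays, and the log2 change of -0.23 was not called (limma adjusted p = 0.192). Without that array it was called lower (-0.35, adjusted p = 0.0461), and all 3 probe sets had values below 0. COL8A2, its usual partner, had a value of -0.03.

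COL7A1, the chain of the anchoring fibrils beneath epithelia, read 461, 364 and 313 units in controls and 380, 359 and 362 after ING2 siRNA. The ING2 siRNA arrays all lay within the range of the controls, with a log2 change of -0.03 (95% interval -0.31 to 0.25, limma adjusted p = 0.880).

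Of 10 FACIT genes 0 rose and 0 fell by limma, with a median of -0.01. The counts at an unadjusted p under 0.05 were 1 higher and 1 lower (10.0% each), against 19.4% and 13.6% of all genes. Of the 10 genes, 8 lay below the median intensity, where the shares over all genes were 26.5% higher and 3.47% lower. COL12A1, which binds to the surface of type I fibrils, read 440, 489 and 490 units in controls and 384, 451 and 432 after ING2 siRNA, with overlap and a log2 change of -0.17 (adjusted p = 0.232). Its 5 probe sets ran from -0.32 to 0.39, and the highest, which read only 8.67 to 9.09 units in controls, was called higher on its own (limma adjusted p = 0.0438). COL16A1 had the lowest change of the members, -0.29 (SE 0.11, adjusted p = 0.0980), from 115 to 137 units in controls to 91.7 to 111 after ING2 siRNA without overlap. With the replicate number as a block it was called lower, and the replicate numbers are not known to pair the samples.

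Lower values without overlap were also measured in COL9A3 (-0.15) and COL21A1 (-0.15), and a higher value without overlap in COL20A1 (0.19), none of them called. Values for COL22A1 (0.35), COL9A1 (0.16), COL14A1 (0.03), COL19A1 (0.02) and COL9A2 (-0.04) overlapped between the groups and were not called.

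Membrane-spanning collagens act in cell adhesion. COL13A1 read 4221, 4330 and 4434 units in controls and 3427, 4096 and 4113 after ING2 siRNA, each ING2 siRNA array below each control, with ING2 siRNA replicate 1 lowest. Its log2 change was -0.16 (95% interval -0.37 to 0.04, limma adjusted p = 0.240), and genes of like brightness had a median of -0.09. All 3 of its probe sets had values below 0. COL23A1 read 49.9, 48.8 and 55.4 units in controls and 71.97, 57.9 and 67.8 after ING2 siRNA, with no overlap and a log2 change of 0.36 just outside the threshold (SE 0.10, adjusted p = 0.0544, bin median 0.15). COL25A1 had a value of -0.10.

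COL18A1, a basement membrane collagen whose end is released as endostatin, read 537, 452 and 443 units in controls and 532, 577 and 579 after ING2 siRNA. Only control replicate 1 overlapped, and the log2 change was 0.24 (SE 0.10, limma adjusted p = 0.117). Without that array it was called higher (0.33, adjusted p = 0.0423), and its other probe set had a value of 0.36. COL15A1 (-0.10), COL26A1 (-0.04) and COL28A1 (0.06) overlapped and were not called.

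**Figure D4:**
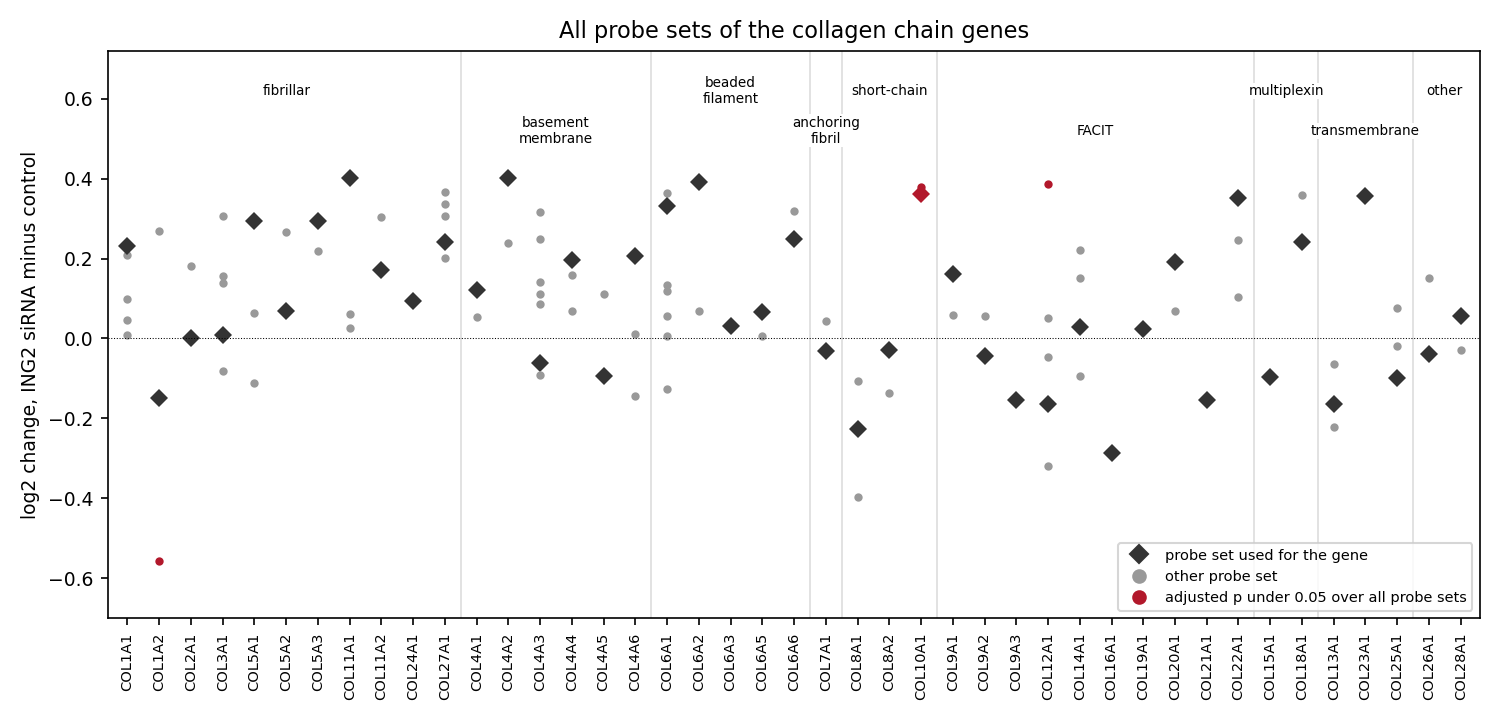
Log2 change (ING2 siRNA minus control) of all 112 probe sets of the 43 collagen chain genes, grouped by structural family; diamonds are the probe sets used for the genes, circles the others, and red marks a limma adjusted p under 0.05 over all probe sets. The called probe sets are 2 of COL10A1, 1 of COL12A1 and 1 of COL1A2, the last one lower.

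Fitted one by one, 4 of the 112 probe sets were called by limma, 3.57% against 5.28% of all probe sets, and 81 had a value above 0. With 1 probe set per gene, 12194 of all 19777 genes were above 0, and 7989 of the 9888 below the median intensity. In the plot of all probe sets, COL8A1 and COL13A1 lie below 0 throughout and COL27A1 and COL4A2 above it. Of 35 members with several probe sets, 18 had all values above 0, 3 had all below and the others had both.

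The enzymes and carriers that make and secrete collagen moved in both directions. Of 35 measured biosynthesis and processing genes, 3 rose and 3 fell (8.57% each), against 3.62% higher and 4.67% lower over all genes. Their median log2 change was 0.05. At an unadjusted p under 0.05 there were 9 higher (25.7%) and 7 lower (20.0%), against 19.4% and 13.6% of all genes. Groups did not overlap in 18 of the 35 (51.4%), against 36.5% of all genes. Only 10 of the 35 lay below the median intensity. Above it, 1.96% of all genes were called higher, 8.25% were called lower and 41.3% did not overlap. The shares there at an unadjusted p under 0.05 were 12.3% higher and 23.7% lower. The largest fall was in SEC23A, a coat protein of the vesicles that carry procollagen out of the endoplasmic reticulum. It read 1549, 2014 and 1970 units in controls and 813, 1174 and 1014 after ING2 siRNA (log2 -0.89, SE 0.14, limma adjusted p = 0.0193). PCOLCE2, an enhancer of the protease that trims procollagen, fell by 0.49 (adjusted p = 0.0242), and P3H4, a partner of lysyl hydroxylation, fell by 0.37 (adjusted p = 0.0369). The groups did not overlap in these 3 genes.

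The rises were smaller. LOXL4, a lysyl oxidase-like enzyme that cross-links collagen, read 2523, 2427 and 2628 units in controls and 3132, 3087 and 3276 after ING2 siRNA (log2 0.33, SE 0.08, limma adjusted p = 0.0382). ADAMTS14, which removes procollagen amino-terminal propeptides, rose by 0.34 (adjusted p = 0.0427), and TLL2, a relative of the carboxy-terminal protease, rose by 0.33 (adjusted p = 0.0415). After median centring 0 genes of the list rose and 4 fell, with adjusted p = 0.0721 for LOXL4, 0.0760 for ADAMTS14 and 0.0800 for TLL2. LOXL4 also missed the threshold with the mean of its probe sets (0.0504), and TLL2 under quantile normalization (0.104), cyclic loess (0.157), 50 added (0.0600) and the mean of its probe sets (0.200). Each of the 6 called genes was called in 2 of the 6 fits without 1 array, and over the list 12 genes passed without control replicate 1 and 11 passed with ING2 siRNA replicate 2 left out.

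Of 9 measured collagen receptor genes 0 rose and 0 fell by limma, with a median of 0.06. The counts at an unadjusted p under 0.05 were 1 higher and 1 lower (11.1% each), against 19.4% and 13.6% of all genes. ITGB1, the beta chain shared by all collagen-binding integrins, read 11360, 11650 and 13450 units in controls and 9240, 10630 and 9510 after ING2 siRNA, without overlap (log2 -0.31, adjusted p = 0.0658). It was called lower in 6 alternatives that kept all arrays and without ING2 siRNA replicate 2 (-0.37, adjusted p = 0.0461). Among these 6 was its probe set of largest interquartile range, with a value of -0.85 (limma adjusted p = 0.00177). That choice uses the spread over all 6 arrays, which includes the difference between the groups, so the p is not independent of it. Over all genes that setting called 1307 higher and 1953 lower. ITGA11, a fibroblast collagen receptor chain, had a value of 0.20 (adjusted p = 0.140).

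Among 14 measured partners of type IV collagen in basement membranes, 1 rose and 1 fell (7.14% each), against 3.62% higher and 4.67% lower over all genes. Their median log2 change was 0.18. At an unadjusted p under 0.05 there were 5 higher (35.7%) and 1 lower (7.14%), against 19.4% and 13.6% of all genes. Groups did not overlap in 5 of the 14 (35.7%), against 36.5% of all genes. LAMB3, a chain of the epithelial laminin, read 2439, 2208 and 2198 units in controls and 2733, 2855 and 3116 after ING2 siRNA (log2 0.35, SE 0.09, limma adjusted p = 0.0423). LAMB1, the beta chain of the widespread laminin, read 824, 823 and 773 units and then 594, 631 and 676 (log2 -0.35, SE 0.08, adjusted p = 0.0373). The groups did not overlap in either gene, and both were called in 2 of the 6 fits without 1 array. LAMB3 lost its call after median centring (adjusted p = 0.0760). LAMB1 lost its call after quantile normalization (0.0802), where 3 genes of the list rose and 0 fell, and with cyclic loess (0.0769) and the mean of its probe sets (0.0548).

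**Figure D5:**
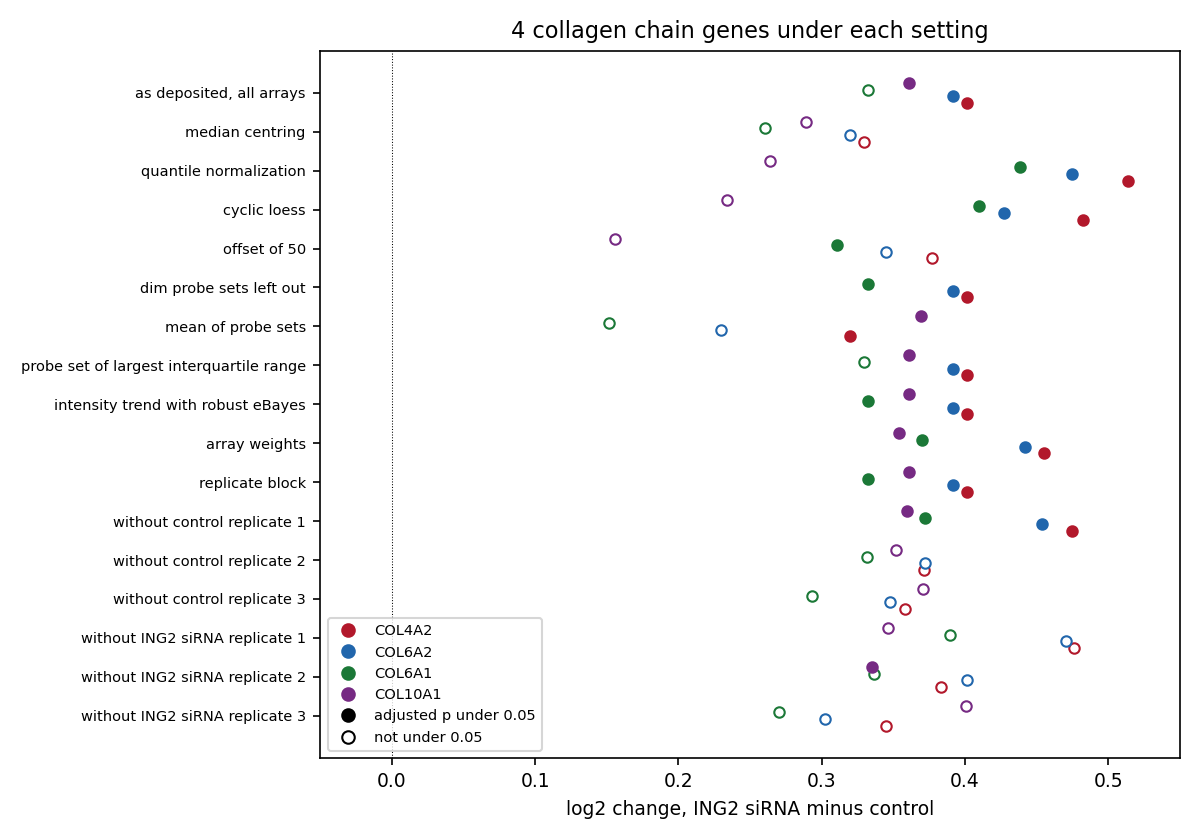
Log2 change (ING2 siRNA minus control) of COL4A2, COL6A2, COL6A1 and COL10A1 under each setting; filled points have a limma adjusted p under 0.05 and open points do not. All values lie above 0; leaving out any array other than control replicate 1 and ING2 siRNA replicate 2 leaves all 4 points unfilled.

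The calls of the 3 members that rose, like those of nearly all genes, rested on which arrays were used. In the plot of settings, with each array left out in turn COL4A2 ran from 0.345 to 0.476, COL6A2 from 0.302 to 0.471 and COL10A1 from 0.335 to 0.401. The count of members called higher was 6 when control replicate 1 was left out, 4 when ING2 siRNA replicate 2 was, and 0 without any 1 of the other 4 arrays. The same held across the table: 982 and 1227 genes were called higher in the first 2 of these fits, and 0 higher and 2 or 3 lower in the other 4. Since the groups do not overlap in these genes, leaving out 1 array cannot turn their direction.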

How the data were processed

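The authors deposited linear intensity values for each probe set in 1 table. Per the submitters' processing notes they used RMA and R 2.12; how linear values were then made is unstated there. Of 54675 probe sets, 62 controls were left out. Gene names came from the platform's 2016 annotation, updated by RefSeq (GRCh38.p14), which held 19735 of the 19777 genes. The log2 of each value was tested with limma 3.58.1 in R 4.3.3 across all genes, with no covariate, filter or pseudocount, and Benjamini-Hochberg adjustment. The method was tested on simulated data. Ratios of chains and the fit of single probe sets were added after the data were seen. Brightness bins are 10 groups of equal size. The members, families and lists were chosen with earlier results of these data known. Values per array are given for members past the threshold, those without overlap and changed by at least 0.3, the head-to-head pairs, chains of types I, V and VI, and 5 other chains; 1 more listed in that rule is not analysed here.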

Additional observations from a re-analysis of the deposited data

How the results depend on the processing

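Median centring, quantile normalization, cyclic loess, 50 added to each value, leaving out dim probe sets, 2 other choices of probe set, a robust eBayes fit with an intensity trend, weights per array, a replicate block and leaving out each array were tried. Counts of members called higher (3) and lower (0) were 0 and 0 after median centring, 5 and 0 after quantile normalization, 1 and 0 with 50 added, 5 and 1 with the most variable probe set (by interquartile range), 10 and 0 with array weights and 7 and 1 with the replicate block. Without 1 array they ranged from 0 to 6 and from 0 to 1. The most variable probe set was picked by spread over all 6 arrays, the difference between the groups included, so its calls are favoured by the choice. The members' median (0.066) was -0.00518 after median centring, 0.0109 after quantile normalization, -0.00131 after cyclic loess, 0.0206 with 50 added, 0.122 without dim probe sets, 0.0947 with the most variable probe set and 0.0415 to 0.11 without 1 array.

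Of biosynthesis genes (6 called), 10 were called with the mean of probe sets, 13 with the most variable probe set, 12 with the trend, 14 with array weights, 13 with the replicate block and 0 to 12 without 1 array. Of receptor genes (0), 1 was called after median centring, 1 with the mean of probe sets, 1 with the most variable probe set, 1 with the trend, 1 with array weights, 2 with the replicate block and 0 to 1 without 1 array. Of basement membrane partners (2), 1 was called after median centring, 5 with array weights and 0 to 4 without 1 array. The ING2 value kept its call in all alternatives, from -3.07 to -2.96 without 1 array. The cause of these shifts was not tested.

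The replicate block does not rest on a known pairing: deviations of same-numbered arrays correlated at 0.263, 0.291 and -0.019. Over all genes it called 1630 higher and 1878 lower.

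Signs turned only in members not called in the report; of the turned values, that of COL12A1 with the most variable probe set passed the threshold. After median centring these were COL2A1 (-0.0696), COL3A1 (-0.0632), COL5A2 (-0.00206), COL6A3 (-0.0400), COL6A5 (-0.00518), COL14A1 (-0.0417), COL19A1 (-0.0476) and COL28A1 (-0.0161). After quantile normalization they were COL2A1 (-0.0927), COL3A1 (-0.084), COL5A2 (-0.0386), COL6A5 (-0.0403), COL7A1 (0.0526), COL9A2 (0.0468), COL14A1 (-0.0656), COL19A1 (-0.0817) and COL28A1 (-0.0501). After cyclic loess they were COL2A1 (-0.121), COL3A1 (-0.113), COL5A2 (-0.0561), COL6A3 (-0.0256), COL6A5 (-0.045), COL7A1 (0.00455), COL14A1 (-0.0957), COL19A1 (-0.101) and COL28A1 (-0.0527). With the mean of probe sets they were COL4A3 (0.107), COL4A5 (0.00944), COL7A1 (0.00592), COL9A2 (0.00559) and COL26A1 (0.0558). With the most variable probe set they were COL3A1 (-0.0823), COL4A3 (0.316), COL4A5 (0.112), COL4A6 (-0.143), COL7A1 (0.043), COL12A1 (0.386), COL14A1 (-0.0929) and COL28A1 (-0.0292). With array weights they were COL7A1 (0.0702), COL14A1 (-0.0247) and COL19A1 (-0.0185).

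Without 1 array, signs turned in COL2A1 (-0.0788 to 0.111), COL3A1 (-0.0817 to 0.0556), COL4A5 (-0.205 to 0.0357), COL5A2 (-0.0238 to 0.152), COL6A3 (-0.0592 to 0.12), COL6A5 (-0.0716 to 0.16), COL7A1 (-0.161 to 0.119), COL8A2 (-0.0637 to 0.0379), COL9A2 (-0.125 to 0.0117), COL14A1 (-0.13 to 0.121), COL19A1 (-0.0296 to 0.0739), COL26A1 (-0.116 to 0.0816) and COL28A1 (-0.0717 to 0.151).

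Intensity limits the dim members: 29 of 43 lay below the median of all genes, and their signal was not tested against background.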
